A study of Chlamydomonas reinhardtii with 9 samples.

Results

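Iron starvation was examined in the walled Chlamydomonas reinhardtii strain CC-4532 through 2 of the 9 droplet single-cell libraries of the series, 1 from cells without iron (Fe−) and 1 from cells with iron (Fe+). The Fe− library held 10054 cells and the Fe+ library held 3075 cells, with transcripts counted for 17893 genes. CC-4532 has an intact cell wall and mating type minus. Cells pre-grown with iron in acetate-containing TAP medium under constant light were washed and kept for 23 h in TAP with 0 µM FeEDTA (Fe−) or 20 µM FeEDTA (Fe+). The same treatment of CC-5390, a cell wall-deficient cw15 strain of mating type plus carrying ARG7, was sampled in experiments 1 and 2 and is given beside the CC-4532 values. The CC-4532 pair belonged to experiment 2. By the study's methods, the experiments differed in pre-culture time, dilution, sequencing instrument and read depth. With 1 library per condition there is no replicate check, and no difference between conditions was tested. Each library came from a single flask, and in the study's own test walled cells showed no visible lysis in the reaction buffer, while CC-5390 cells did. The part of lysis in these values was not tested. In sums over a library, fewer cells of a type and less RNA per cell cannot be told apart.

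Chlamydomonas assimilates iron by reduction at the cell surface, followed by oxidation coupled to transport. FRE1 is a ferric reductase, FOX1 a multicopper ferroxidase and FTR1 the iron permease paired with it, while CTP1 is a copper-transporting ATPase that loads copper into FOX1. FEA1 and FEA2 are secreted iron-assimilating proteins of the periplasm, IRT1 and IRT2 are ZIP-family transporters, and FER1 is a plastid ferritin. Photosystem I and cytochrome b6f are rich in iron, and loss of photosystem I and its antenna is a known response of this alga to iron deficiency.

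The Fe− library held 33043043 unique molecular identifiers (UMIs, each standing for 1 captured transcript) with a median of 2906 per cell, and the Fe+ library held 18265469 with a median of 5473 per cell. When every cell was thinned to 500 UMIs, the median cell had 147 genes in Fe− and 152 genes in Fe+. Cytosolic ribosomal protein transcripts made up 68.2% of UMIs in Fe− and 70.9% in Fe+, so that other genes were read at low depth. Transcripts of the chloroplast genome took 1.17% of UMIs in Fe− and 2.00% in Fe+, and those of the mitochondrial genome took 0.626% in Fe− and 0.468% in Fe+. Barcodes shared with other iron libraries of experiment 2 marked 54 cells of the Fe− library and 29 cells of the Fe+ library, with 5 common to the CC-4532 pair. The mating type of the libraries was not checked, since the genes of that locus could not be matched by name.

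Expression was compared as CPM, the usual scaling of counts to the library total, and each ratio is Fe− over Fe+ with an exact 95% counting interval. These intervals cover counting error only, not differences between cells or between cultures. They treat UMIs as independent, although those of a gene can come from few cells. A gene is said to have risen or fallen where the whole interval lay beyond 2-fold. A minimum of 20 UMIs over the pair of libraries left 12621 genes, of which 2872 rose (22.8%) and 743 fell (5.89%). The median gene had a log2 ratio of 0.40 (1.32-fold), and after division by that median 1980 genes rose and 1379 fell, so that the share of risen genes among those past 2-fold was 58.9% in place of 79.4%. After centring 15.7% of all genes rose and 10.9% fell. Counts for gene groups are given with and without this centring, and are read against these shares.

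Transcripts of the iron assimilation pathway had the highest median ratio of the gene lists examined. All 10 genes of iron uptake and storage that could be matched by name rose, against a background of 22.8%, with a median log2 ratio of 4.80, and their sum was 2031 CPM in Fe− cells against 79.5 CPM in Fe+ cells (25.5-fold, 24.3 to 26.9). The same 10 rose after median centring. Gene names came only from the study's lists and the genes it names. FRE1, FEA1, FEA2, FOX1, FTR1, FER1, CTP1, IRT1 and IRT2 are all on its iron deficiency list. That list was chosen for induction by low iron in this strain, so the count is not support apart from it. FRE1 (Cre04.g227400, chromosome 4, 3355079 to 3363615) had 4547 UMIs in Fe− and 4 UMIs in Fe+, or 138 CPM against 0.219 CPM, a ratio of 628 (245 to 2307). No other gene with 4 UMIs or more in one library and 200 or more in the other had a ratio as high.

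FEA2 had 22640 UMIs (685 CPM) in Fe− and 299 UMIs (16.4 CPM) in Fe+, a ratio of 41.9 (37.3 to 47.1). FEA1 was close to it, with 19242 UMIs (582 CPM) in Fe− and 303 UMIs (16.6 CPM) in Fe+, a ratio of 35.1 (31.3 to 39.5). Together FEA1 and FEA2 took 18.7% of all UMIs of the iron deficiency list in Fe− and 3.196% in Fe+. They encode related proteins, so the division of reads between them is uncertain. In the oxidation and permeation step, FTR1 had 111 CPM in Fe− against 4.98 CPM in Fe+ (22.4-fold, 18.2 to 27.8). Its partner FOX1 had 178 CPM in Fe− against 14.4 CPM in Fe+ (12.4-fold, 10.9 to 14.0). The copper ATPase CTP1 rose less, with 53.9 CPM in Fe− and 7.17 CPM in Fe+ (7.52-fold, 6.29 to 9.04). The ferritin gene FER1, which serves storage and not uptake, rose as well, to 192 CPM in Fe− against 14.3 CPM in Fe+ (13.4-fold, 11.9 to 15.3).

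The ZIP transporters were sparse. IRT1 had 310 UMIs in Fe− and 1 UMI in Fe+ (ratio 171, 30.5 to 6790), and IRT2 had 117 UMIs in Fe− and 1 UMI in Fe+ (ratio 64.7, 11.4 to 2576). Their intervals are wide because a single molecule was read in Fe+, but both lay wholly above 2-fold. As related neighbouring genes, IRT1 and IRT2 may share reads.

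**Figure D1:**
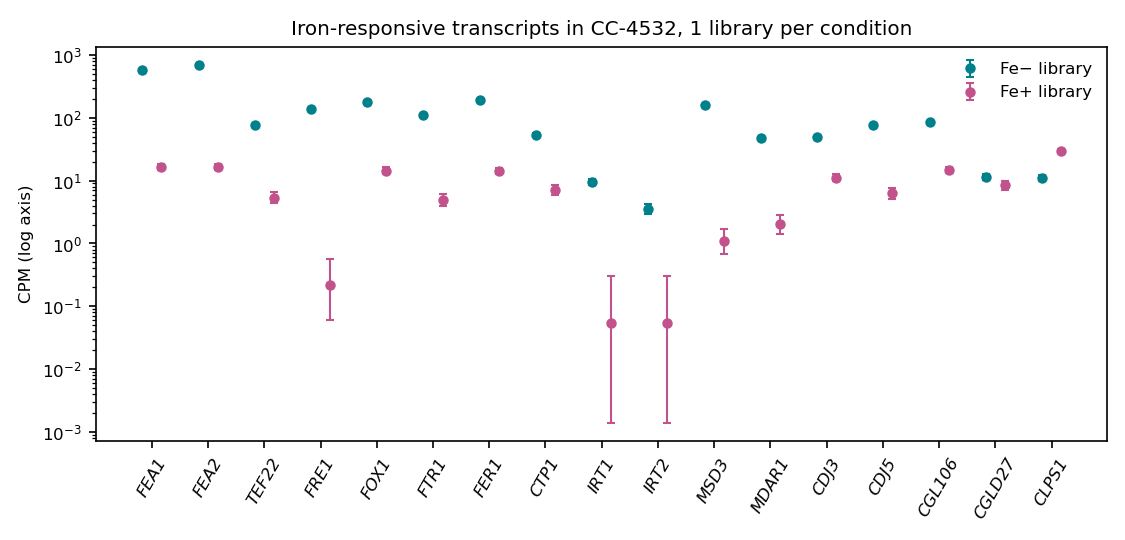
Levels of named iron-responsive genes in CC-4532, in CPM on a log axis, with teal points for the Fe− library, pink points for the Fe+ library and bars for the exact 95% counting intervals. FRE1 stands at 138 CPM in Fe− and 0.219 CPM in Fe+, CGLD27 points lie close together, and CLPS1 is the 1 gene shown that is lower in Fe−.

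FEA2, FEA1 and TEF22 lie side by side on chromosome 12 of genome v5.5, FEA2 at 8666912 to 8670847, FEA1 at 8671306 to 8675189 and TEF22 at 8675408 to 8681279. TEF22 rose 14.4-fold (11.8 to 17.8), with 2555 UMIs in Fe− and 98 UMIs in Fe+. The gene on the FEA2 side, Cre12.g546650 at 8663831 to 8666773, also rose, with 1828 UMIs in Fe− and 312 UMIs in Fe+ (3.24-fold, 2.87 to 3.66). The genes beyond these did not rise. Cre12.g546700 had 73 UMIs in Fe− and 54 UMIs in Fe+ (ratio 0.747, 0.518 to 1.08), and on the TEF22 side Cre12.g546450 had 7 UMIs in Fe− and 11 UMIs in Fe+ while Cre12.g546400 had a ratio of 0.654 (0.550 to 0.779). The second cluster on this chromosome, IRT2 at 5438306 to 5442687 and IRT1 at 5444196 to 5447896, was flanked by Cre12.g530300 with a ratio of 0.464 (0.414 to 0.519) and Cre12.g530450 with 29 UMIs in Fe− and 7 UMIs in Fe+ (2.29, 0.982 to 6.19). These flanking genes are named for their position.

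Of the 100 genes on the iron deficiency list, which the study drew from an earlier bulk RNA-seq comparison of this same strain, 99 had enough UMIs, 76 rose and 1, CLPS1, fell. The list's median log2 ratio was 2.29, beside 0.40 over all genes, and 62 members rose and 1 fell after median centring. The list summed to 6770 CPM in Fe− and 1031 CPM in Fe+ (6.57-fold, 6.47 to 6.66). The response was unequal across members: 26 had ratios above 10, 59 lay between 2 and 10, and 6 lay below 1. Cre13.g574500, an unnamed list member, had 203 UMIs in Fe− and 0 UMIs in Fe+. That is 37.4-fold higher if the Fe+ library is set to a floor of 3 counts. The exact 95% interval of the ratio begins at the lower value of 30.1.

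Among genes that remove superoxide and peroxide, MSD3 had the highest ratio. MSD3, a manganese superoxide dismutase, had 5340 UMIs in Fe− and 20 UMIs in Fe+, or 162 CPM against 1.10 CPM (148-fold, 95.5 to 242). MDAR1, a monodehydroascorbate reductase, had 47.3 CPM in Fe− and 2.03 CPM in Fe+ (23.3-fold, 16.9 to 33.3). GRX6, a glutaredoxin, did not pass, with 16.4 CPM in Fe− and 17.3 CPM in Fe+. These were the 3 genes of 28 asked for that could be matched, so they do not describe the whole system. All 3 are on the iron deficiency list.

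In the chloroplast, CDJ5 and CDJ3, DnaJ-like proteins of the plastid with ferredoxin-type domains, both rose. CDJ5 had 77.1 CPM in Fe− against 6.24 CPM in Fe+ (12.4-fold, 10.2 to 15.1), and CDJ3 had 49.1 CPM in Fe− against 11.2 CPM in Fe+ (4.398-fold, 3.80 to 5.11). CGL106 (5.82-fold) and FLU (2.35-fold), a regulator of chlorophyll synthesis, rose too. CGLD27 did not pass, with 11.5 CPM in Fe− and 8.49 CPM in Fe+ (ratio 1.36, 1.12 to 1.64). CLPS1, a substrate selector of the Clp protease, fell, with 11.1 CPM in Fe− and 29.8 CPM in Fe+ (ratio 0.374, 0.327 to 0.428). Of the transporters of other metals, CTR3 (4.18-fold), ACA4 (3.05-fold) and MTP1 (2.55-fold) rose, and ZIP1 had 92 UMIs in Fe− and 17 UMIs in Fe+ (2.99, 1.77 to 5.36). MTP1 sat at the edge of the criterion, its interval beginning at 2.002. The ferredoxins FDX6 (3.53-fold) and FDX3 (2.89-fold) both rose. After median centring MTP1, FLU and FDX3 no longer passed, so that 2 of the 4 metal transporters, 3 of the 6 chloroplast genes and 1 of the 2 ferredoxins rose. All of these genes except CTR3 and ZIP1 are on the iron deficiency list. Their counts are thus not support apart from that list.

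Among genes with 4 UMIs or more in one library and 200 or more in the other, which leaves out IRT1, IRT2 and Cre13.g574500, the 15 highest ratios included 7 iron list genes, namely FRE1, MSD3, FEA2, FEA1 and the unnamed Cre07.g336800 (67.1), Cre05.g241400 (60.9) and Cre05.g248300 (54.4). Among the others was RIR2, the small subunit of ribonucleotide reductase, an iron enzyme that makes deoxyribonucleotides, with 3306 UMIs in Fe− and 45 UMIs in Fe+ (40.6-fold, 30.3 to 55.8). The large subunit gene RIR1 had 375 UMIs in Fe− and 106 UMIs in Fe+, a ratio of 1.96 (1.57 to 2.45) that did not pass. PTA3, of a family of phosphate transporters, had 400 UMIs in Fe− and 6 UMIs in Fe+ (36.9-fold, 16.8 to 101.0). At the opposite end, Cre04.g223100 had 0 UMIs in Fe− and 242 UMIs in Fe+. That is 146-fold lower if the Fe− library is set to a floor of 3 counts. The exact 95% interval of the ratio ends at 0.00849, a smaller fold.

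Photosynthesis transcripts had the lowest median ratio of the study's gene lists. Of 80 photosynthesis list genes with enough UMIs, 50 fell and 4 rose, against a background of 5.89% fallen, and 55 fell and 1 rose after median centring. Their median log2 ratio was −1.82. The list summed to 9611 CPM in Fe− and 36270 CPM in Fe+ (ratio 0.265, 0.264 to 0.266). The plastocyanin gene PCY1, which encodes a copper protein of the electron transport chain, fell to 686 CPM in Fe− against 2092 CPM in Fe+ (ratio 0.328).

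The photosystem I antenna fell furthest. All 9 of its genes fell, with a median log2 ratio of −3.64, and together they gave 453 CPM in Fe− and 4835 CPM in Fe+ (ratio 0.0937, 0.0921 to 0.0953). LHCA6 had 504 UMIs (15.3 CPM) in Fe− and 5256 UMIs (288 CPM) in Fe+, a ratio of 0.0530 (0.0483 to 0.0581). No other gene that met the same minimum of 200 and 4 UMIs had a lower one. LHCA4 had 25.4 CPM in Fe− and 386 CPM in Fe+ (0.0656), LHCA3 had 34.0 CPM in Fe− and 491 CPM in Fe+ (0.0693), and LHCA1 had 57.6 CPM in Fe− and 811 CPM in Fe+ (0.0710). All 10 photosystem I subunit genes fell (median log2 ratio −2.77), including PSAG (0.0987), PSAL (0.112) and PSAE (0.167), which encode small subunits of that complex.

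The other complexes fell as well. All 6 photosystem II subunit genes fell (median −2.65), with PSBO, of the oxygen-evolving complex, at 122 CPM in Fe− and 785 CPM in Fe+ (0.156, 0.150 to 0.161). All 4 genes of cytochrome b6f and its carriers fell (median −2.45), with PETC, the Rieske iron-sulfur protein, at 98.3 CPM in Fe− and 656 CPM in Fe+ (0.150, 0.144 to 0.156). The 3 chloroplast ATP synthase genes fell least (median −1.22). Of 19 chlorophyll biosynthesis genes 10 fell (14 after median centring), among them UPD1 (0.108) and CHLM (0.152), the magnesium protoporphyrin methyltransferase, with a median of −1.39. The remaining genes of the list, mostly nucleus-encoded factors for the expression of plastid genes, gave 4 risen and 0 fallen of 18, a share of 22.2% that is near the 22.8% over all genes. Those 4 were Rat1 (4.07-fold), TAB1 (3.67-fold), TBC2 (2.82-fold) and TAB2 (2.68-fold). TAB1, TAB2 and TBC2 act in the translation of plastid photosystem mRNAs, and Rat1 in the maturation of one of them. After median centring 1 of the 18, Rat1, rose and 1 fell.

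The photosystem II antenna was uneven. Of 11 genes 8 fell, with a median log2 ratio of −1.73. LHCBM7 fell to 174 CPM in Fe− against 1984 CPM in Fe+ (0.0878, 0.0854 to 0.0903). LHCBM1 had 1637 CPM in Fe− and 4576 CPM in Fe+ (0.358), and LHCBM3 had 1259 CPM in Fe− and 2650 CPM in Fe+ (0.475). LHCBM4 did not pass, with 169 CPM in Fe− and 167 CPM in Fe+ (1.01, 0.970 to 1.06), nor did LHCBM8 (1.14, 1.04 to 1.25) or LHCBM9, which had 22 UMIs in Fe− and 15 in Fe+. The LHCBM genes are close paralogs, so the split of reads among them is uncertain. NAB1, an RNA-binding repressor of LHCBM translation, was among the lowest ratios at 9.29 CPM in Fe− and 147 CPM in Fe+ (0.0633, 0.0561 to 0.0713).

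**Figure D2:**
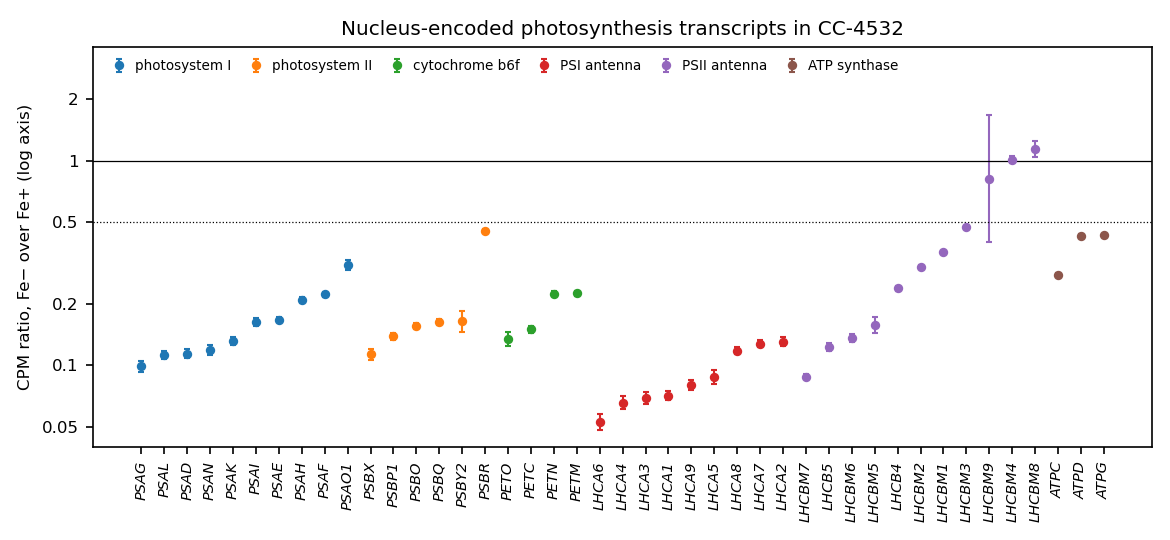
CPM ratios of Fe− over Fe+ in CC-4532 on a log axis for nucleus-encoded photosystem, cytochrome b6f, antenna and ATP synthase genes, with 1 point per gene coloured by complex and bars for the exact 95% counting intervals. A solid line marks a ratio of 1 and a dotted line 0.5, and only LHCBM4, LHCBM8 and LHCBM9 have intervals reaching above the dotted line.

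Transcripts for the chloroplast ribosome fell together. Of 41 genes 36 fell (87.8%, against 5.89% over all genes) and 0 rose, and 39 fell after median centring, with a median log2 ratio of −1.60, and the sum was 1783 CPM in Fe− and 5416 CPM in Fe+ (ratio 0.329, 0.326 to 0.333). PRPL7, a large subunit protein, had 109 CPM in Fe− and 528 CPM in Fe+ (0.206, 0.198 to 0.214). Neither of the other ribosomes followed. Of 76 cytosolic ribosomal protein genes 0 rose and 0 fell (median −0.08), and of 34 mitochondrial ones 2 rose (MRPS9 and MRPL20) and 1 fell (MRPL23), with a median of 0.07. These shares of risen genes lay below the 22.8% over all genes, and after median centring 0 cytosolic genes changed while 1 mitochondrial gene rose and 2 fell.

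Most of the cell wall genes found rose in CC-4532. Of 11 matched by name 8 rose (72.7%, against 22.8% over all genes) and 0 fell, also after median centring, with a median log2 ratio of 2.37. MMP29, a matrix metalloprotease, had 147 CPM in Fe− and 16.4 CPM in Fe+ (8.99-fold, 8.00 to 10.1). The pherophorins, hydroxyproline-rich proteins of the extracellular matrix, were represented by PHC28 (8.53-fold), PHC21 (3.21-fold) and PHC1 (3.19-fold), all risen. GAS28 (5.58-fold) and VSP1 (5.19-fold), further hydroxyproline-rich wall proteins, rose as well. The GAS28 UMIs came from 8.86% of Fe− cells and 3.09% of Fe+ cells. At 1000 UMIs per cell GAS28 was found in 4.975% and 1.49% of them. PHC28, PHC21, PHC1, GAS28 and VSP1 are also on the iron deficiency list, which was chosen for induction by low iron. The share of risen wall genes is thus not support apart from that list. In wall-deficient CC-5390, 9 of 11 rose in experiment 1 and 3 of 11 in experiment 2. PHC5 had 56.1 CPM in Fe− and 41.6 CPM in Fe+ (1.35, 1.24 to 1.47) and did not pass.

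Cell division genes rose about as often as all genes. Of 77 with enough UMIs 20 rose (26.0%, against 22.8% over all genes) and 0 fell, with a median log2 ratio of 0.90, and 12 rose and 1 fell after median centring. Those that rose included RIR2 and genes of D-type cyclins, which act in entry to division. CYCD3 had 89.0 CPM in Fe− against 18.2 CPM in Fe+ (4.90-fold), and CYCD2 had 42.2 CPM in Fe− against 11.8 CPM in Fe+ (3.57-fold, 3.09 to 4.13). The list summed to 553 CPM in Fe− and 175 CPM in Fe+ (3.16-fold, 3.04 to 3.28). To these sums RIR2 alone gave 100.1 CPM in Fe− and 2.46 CPM in Fe+. With cells thinned to 500 UMIs, 19.55% of Fe− cells (18.8 to 20.3) had a UMI of the list. In Fe+ this share was 7.90% (6.97 to 8.91).

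Lipid synthesis genes fell more often than all genes. Of 54 genes 14 fell, or 25.9% against 5.89% over all genes, and 14 rose, a share near the 22.8% over all genes. After median centring 18 fell and 8 rose. INO1, inositol phosphate synthase, rose to 354 CPM in Fe− against 82.4 CPM in Fe+ (4.29-fold, 4.07 to 4.53), and SDC1, serine decarboxylase, rose 3.02-fold. Plastid fatty acid synthesis was represented among those that fell. ENR1, enoyl-ACP reductase, had 51.4 CPM in Fe− and 224 CPM in Fe+ (0.229, 0.217 to 0.243), and ACP2, acyl carrier protein, had 340.1 CPM in Fe− and 901 CPM in Fe+ (0.377, 0.368 to 0.386).

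Of the study's nitrogen lists, 38.1% of the deficiency genes rose, against 22.8% over all genes. These were 37 of 97 genes, while 3 fell (30 rose and 7 fell after median centring), with a median log2 ratio of 0.95. Those that fell were ASB2, HAD6 and IAD2. GPD2, a glycerol-3-phosphate dehydrogenase, had 848 CPM in Fe− and 121 CPM in Fe+ (6.996-fold, 6.70 to 7.31). Of 153 genes listed for nitrogen sufficiency 39 fell (25.5%, against 5.89% over all genes) and 29 rose, a share below the 22.8% over all genes, with a median of −0.25, and 50 fell and 25 rose after median centring. FEA1 and PCY1 belong to this last list, so it shares members with the groups above.

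**Figure D3:**
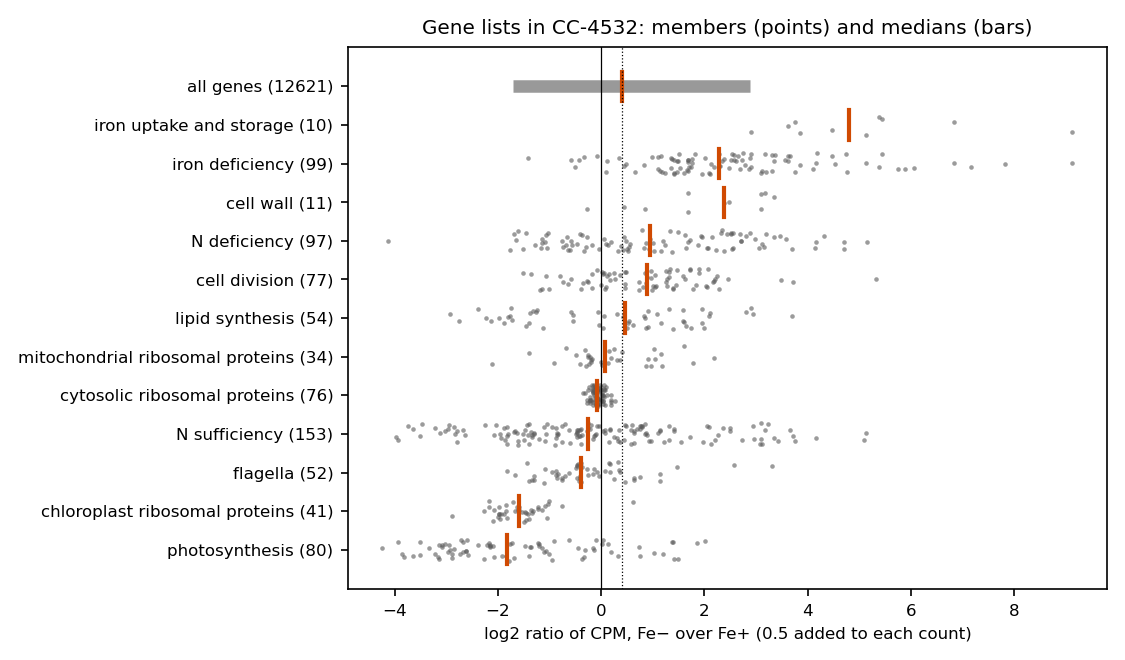
Log2 ratios of CPM, Fe− over Fe+, in CC-4532 for the members of each gene list (points, with their number in brackets) and the list medians (orange bars), the grey bar for all genes running from the 5th to the 95th percentile and the dotted line marking their median. Iron uptake and storage has the highest median, 4.80, and photosynthesis the lowest, −1.82.

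With every cell drawn down to 500 UMIs, 87.1% of the Fe− cells had an iron list UMI (exact 95% binomial interval 86.4 to 87.7). In Fe+ this share was 33.5% (31.8 to 35.2). The depths before drawing differed, as given above. The list took a mean of 0.639% of UMIs per cell in Fe− and 0.126% in Fe+. Of Fe− cells, 32.7% (31.8 to 33.7) lay above the 95th percentile of Fe+ cells. No list UMI was read in 12.9% of Fe− cells at this depth, against 66.5% of Fe+ cells. A count of 0 in 500 UMIs does not show that a cell lacks these transcripts. At 1000 UMIs, the median Fe− cell had 4 iron list genes with a UMI and the highest 29, against a median of 0 and a highest of 15 in Fe+.

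Detection of single genes followed the sums. At 1000 UMIs FEA2 was found in 43.4% of Fe− cells and 1.43% of Fe+ cells, and FEA1 in 37.3% of Fe− cells and 1.46% of Fe+ cells. FRE1 was found in 12.7% of Fe− cells and 0.0332% of Fe+ cells. RNA free in the droplets can give such UMIs and was not removed. With no cell type lacking these genes in a culture of one alga, a background share could not be set. At 500 UMIs, at least 1 UMI of the 10 iron uptake and storage genes was read in 57.8% of Fe− cells (56.8 to 58.8). The share in Fe+ was 3.71% (3.07 to 4.44).

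Photosynthesis transcripts varied widely among Fe+ cells. At 500 UMIs they took a mean of 0.996% of UMIs in Fe− cells and 3.25% in Fe+ cells. The Fe− median was 0.8% and its 95th percentile 2.8%, while the Fe+ median was 2.0%, with the 5th percentile at 0.2% and the 95th at 9.4%. Of Fe− cells, 7.61% lay below the 5th percentile of Fe+ cells, so the ranges overlapped. At this depth only cells with no photosynthesis UMI could lie below that percentile. At 1000 UMIs the share was 20.25% (19.45 to 21.07). Splitting each library into quartiles of UMIs per cell gave ranges that did not overlap between the libraries. The iron list stood between 5135 and 8263 CPM in the Fe− quartiles and between 811 and 1868 CPM in the Fe+ quartiles, and photosynthesis between 8419 and 11270 CPM in Fe− and between 23640 and 42100 CPM in Fe+.

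**Figure D4:**
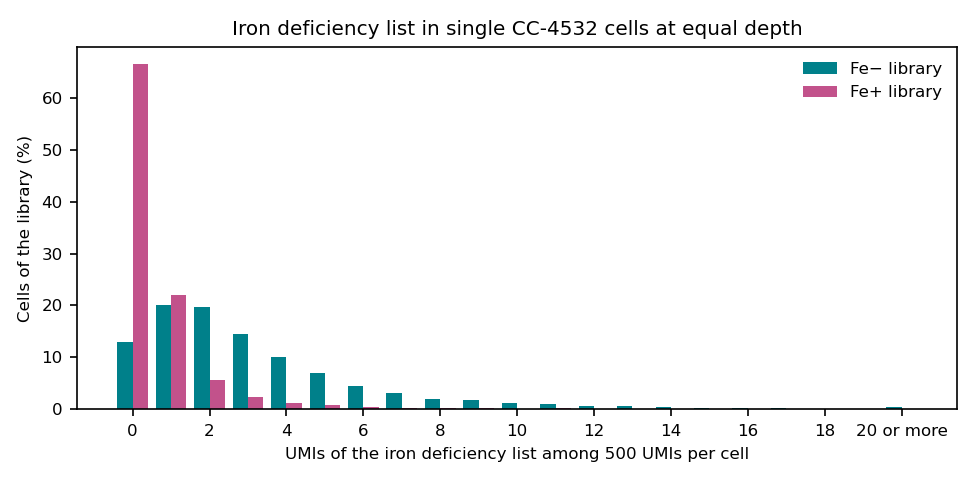
Share of cells (percent of the library) by the number of iron deficiency list UMIs among 500 UMIs per cell in CC-4532, with teal bars for Fe− and pink bars for Fe+. The bar at 0 UMIs holds 12.9% of Fe− cells and 66.5% of Fe+ cells.

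The CC-5390 libraries held between 32077582 and 52436795 UMIs, and the shares of genes that changed depended on the scaling. In experiment 1, 8.26% of 14427 genes rose and 6.11% fell, and in experiment 2, 14.6% of 14664 rose and 9.03% fell. After centring on each pair's own median, 15.7% rose and 10.9% fell in CC-4532, beside 5.79% and 8.28% in experiment 1 and 14.3% and 9.38% in experiment 2. Across the 12315 genes with enough UMIs in all 3 pairs, log2 ratios in CC-4532 had a Pearson r of 0.459 with CC-5390 of experiment 1 and 0.738 with CC-5390 of experiment 2, while the 2 CC-5390 experiments had 0.558 with each other. Genes are not independent replicates, and CC-4532 and the second CC-5390 pair belonged to the same experiment. Of the 724 genes that fell in CC-4532 and were tested in all pairs, 49.9% fell in experiment 1 and 71.7% in experiment 2, beside backgrounds of 6.76% and 10.1%. Of the 2811 that rose, 17.9% rose in experiment 1 and 50.8% in experiment 2, beside backgrounds of 8.18% and 15.9%. Differences between the strains were not tested.

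Within the iron list, 47 genes rose in all 3 pairs, 14 rose in CC-4532 and in neither CC-5390 pair, and 5 rose in both CC-5390 pairs and not in CC-4532. In CC-4532 the list took 0.677% of UMIs in Fe− and 0.103% in Fe+. In CC-5390 these shares were 1.80% and 0.585% in experiment 1 and 0.676% and 0.281% in experiment 2. FEA2 had like ratios throughout, 41.9 in CC-4532 and 47.2 and 55.0 in experiments 1 and 2 of CC-5390. FEA1 did not, with 35.1 in CC-4532 against 6.48 and 4.68, and its level in Fe+ cells was 16.6 CPM in CC-4532 against 340 CPM and 132 CPM in CC-5390. FRE1 showed the same arrangement, its Fe+ level being 0.219 CPM in CC-4532 and 24.2 CPM and 24.6 CPM in CC-5390. The FRE1 level in Fe− was not higher in CC-4532, at 138 CPM against 656 CPM and 265 CPM in CC-5390. Its ratio was 628 in CC-4532 against 27.1 and 10.7. CGLD27 went the other way, with a ratio of 1.36 in CC-4532 against 14.9 and 9.08 in CC-5390. The other 4 genes that rose in both CC-5390 pairs only have no name in the files, and they had ratios of 2.31 (Cre13.g581150), 2.27 (Cre13.g581850), 1.98 (Cre10.g456900) and 1.62 (Cre07.g325711) in CC-4532, with intervals that reached below 2. These were named after their values were seen.

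**Figure D5:**
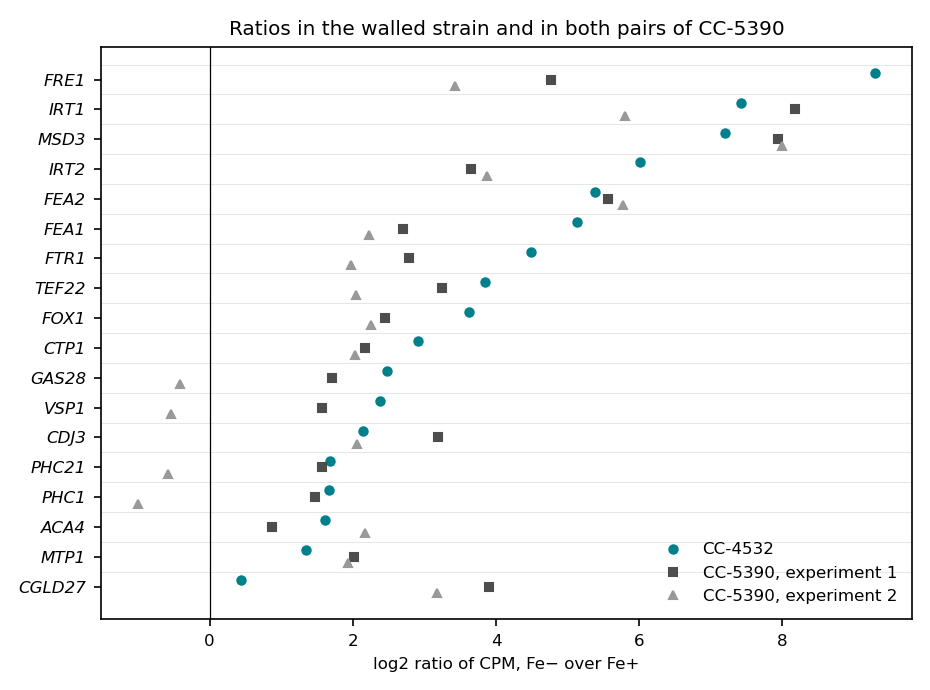
Log2 ratios of CPM, Fe− over Fe+, for 18 named genes in CC-4532 (circles), CC-5390 experiment 1 (squares) and CC-5390 experiment 2 (triangles). FEA2 has like ratios in all 3 pairs, FRE1 and FEA1 are highest in CC-4532, and CGLD27 is lowest there.

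Of 11 photosystem II antenna genes, 8 fell in CC-4532, and 7 and 6 fell in experiments 1 and 2 of CC-5390. The medians were −1.73, −1.32 and −1.34, and single genes differed. LHCBM1 had a ratio of 0.358 in CC-4532 beside 1.07 and 0.945 in CC-5390, and LHCBM3 had 0.475 in CC-4532 beside 1.44 and 1.17 in CC-5390. LHCBM4 and LHCBM8 were instead highest in CC-4532. LHCBM4 had 1.01 there beside 0.191 and 0.815 in CC-5390, and LHCBM8 had 1.14 beside 0.123 and 1.04. The photosystem I antenna genes, by contrast, fell in every pair, all 9 of 9. Cell wall genes had a median log2 ratio of 2.37 in CC-4532, 1.71 in experiment 1 and −0.06 in experiment 2 of CC-5390. PHC1 had a ratio of 3.19 in CC-4532 beside 2.77 and 0.498 in CC-5390, and PTA3 had 36.9 in CC-4532 beside 1.07 and 1.23 in CC-5390.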

How the data were processed

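Libraries were made by the authors with droplet 3′ chemistry. Per the labels and the study's methods, the authors aligned reads to C. reinhardtii genome v5.5 and counted UMIs with Cell Ranger 3.0.2, and the deposited tables hold raw counts per gene and cell, unnormalised and with 1 library per table. A UMI count is 1 captured molecule and does not scale with transcript length. From these counts, the UMIs of all cells of a library were added up for each gene and scaled to the library total (CPM). Ratios have exact conditional binomial intervals, CPM have exact Poisson intervals and shares of cells Clopper-Pearson intervals, all at 95%. Log2 ratios had 0.5 added to each count. Cells were thinned at random to 500 or 1000 UMIs for detection. No cell was shallower than 500 UMIs, and 385 Fe− and 59 Fe+ cells were shallower than 1000. Computations used Python 3.11.15 with numpy 2.4.6, scipy 1.17.1 and pandas 2.3.3 and were checked on simulated data.

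The study analysed 9289 Fe− and 2814 Fe+ cells of CC-4532. The tables hold 10054 and 3075, of which 10049 and 3056 pass its stated filter of 100 genes and 300 UMIs, and the reason for the gap was not tested. No doublet caller was run, and leaving out the 10% of cells with the most UMIs stands in for one. Free RNA was not removed, and the study's aggregation step was not repeated.

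The study compiled the iron deficiency list from an earlier publication's bulk RNA-seq of CC-4532, not from these libraries. Of its list of rhythmic genes, only phases 0 to 3.5 h were used here. Named genes were the 19 the study gives with a locus, the 15 highest and 15 lowest ratios (200 UMIs in the higher and 4 in the lower library), those with 0 UMIs in 1 library and 100 in the other, and up to 4 members of each list risen, fallen or neither, by UMIs. Of 321 symbols asked for, some matched several genes, and 93 genes were found, so several lists could not be used. Symbols were resolved only through names that the study gives, so lists by symbol share members with its lists. Of the 17893 genes, 17738 have RefSeq positions on v5.5, and those are the coordinates printed. The samples, members and lists were chosen with earlier results of these data known. The mixed and nitrogen-starved libraries were not used.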

Additional observations from a re-analysis of the deposited data

Results flagged for a closer look

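In 3 named genes the ratio of Fe− over Fe+ in CC-4532 was past 2-fold in one direction while both CC-5390 experiments lay on the other side of 1, their counting intervals included. These differences between strains were not tested, and each pair has 1 library per condition. Cre03.g206452, a rhythmic gene of phase 3.5 h, had 1296 UMIs in Fe− and 294 UMIs in Fe+ and a ratio of 2.44 in CC-4532, beside 0.594 and 0.479 in experiments 1 and 2 of CC-5390. LHCBM3 had a ratio of 0.475 in CC-4532 beside 1.44 and 1.17, and its reads may be divided among close paralogs. TAB2 had 465 UMIs in Fe− and 96 UMIs in Fe+ and a ratio of 2.68 in CC-4532, beside 0.493 and 0.858. These ratios were not centred, and the median gene stood at 1.32-fold in CC-4532 beside 1.14 and 1.01 in CC-5390. After median centring LHCBM3 still passed 2-fold in CC-4532, while Cre03.g206452 (centred log2 ratio 0.889) and TAB2 did not.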

How the results depend on the processing

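The photosynthesis result kept its count under every alternative, within 1.5 times of 50. Median centring changed the 743 fallen genes to 1379. Thinning every cell to 500 UMIs left 6212 genes to test, and gave 975 risen and 253 fallen genes and 49 risen iron list genes of 89. Calling genes on the ratio alone, without its interval, gave 4417 risen and 1936 fallen. The 32.7% of Fe− cells above the 95th percentile of Fe+ cells became 41.7% at 1000 UMIs, 47.1% without thinning, 24.0% with FEA1, FEA2 and TEF22 left out of the list, and 30.5% without the 10% of cells with the most UMIs. With at least 100 UMIs in every pair, an alternative chosen after seeing the data, the correlations with CC-5390 were 0.546 and 0.782 over 7285 genes. The median log2 ratio changed sign after centring for mitochondrial ribosomal proteins (−0.33) and rhythmic genes of phases 2.5 h (−0.28), 3 h (−0.11) and 3.5 h (−0.20), and that of phase 2.5 h also when cells weighed equally (−0.003). ASB2, with 29 UMIs in Fe− and 52 in Fe+, had a ratio of 0.308 and of 1.07 after thinning. Of 1714 recomputed ratios of named genes this was the 1 that reversed, and 15 had no value because a library had 0 UMIs. The cause of the reversal was not tested. A further 632 of the 1714 lay outside the 95% counting interval of the main ratio. Over all genes past 2-fold, 6 changed sign when cells were thinned to 500 UMIs. No paired analysis was possible because each condition has 1 library. Depth limits low genes, and agreement among these settings says nothing about variation between cultures.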

Other observations

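Genes with a daily rhythm differed by phase in CC-4532 over the phases used here, 0 to 3.5 h, and later phases were not analysed here. Of genes with phase 0 h, 63 of 181 rose and 3 fell (median log2 ratio 0.92), a risen share of 34.8% against 22.8% over all genes, and 44 rose and 8 fell after median centring. Of those with phase 0.5 h, 41 of 105 rose (39.0%) and 0 fell (0.83), and 28 rose and 4 fell after centring. Genes of phase 2 h had the lowest median of these 8 phases (−0.12). Of 189 such genes 49 fell, or 25.9% against 5.89% over all genes, and 38 rose, or 20.1%, near the share over all genes, while 63 fell and 22 rose after centring. In CC-5390 the phase 0 h medians were 0.16 in experiment 1 and −0.16 in experiment 2, and the difference between strains was not tested.

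Of 52 genes for flagellar proteins 3 rose (5.77%, against 22.8% over all genes) and 5 fell (9.62%, against 5.89%), with a median of −0.40, and 2 rose and 11 fell after median centring. FAP137 (9.90-fold, 8.75 to 11.2), FAP23 (6.004-fold) and FAP212 (2.77-fold) rose. All 3 are also on the iron deficiency list, which was chosen for induction by low iron. FAP20, FAP90, FAP154, FAP227 and FAP385 fell, and FAP90 had 10.1 CPM in Fe− and 35.9 CPM in Fe+ (0.282, 0.246 to 0.322). Flagellar names came only from the study's lists, among them nitrogen sufficiency, which was chosen for repression by low nitrogen. The share of flagellar genes that fell is thus not support apart from those lists.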
